A study of Mus musculus with 6 samples.

Results

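The expression of 10 genes that restrain signalling through ERK, the extracellular signal-regulated kinase, was examined in hearts of newborn mice with a cardiac knockout of Kdm5b. They are 5 dual-specificity phosphatase genes (Dusp1, Dusp4, Dusp5, Dusp6 and Dusp7), 3 Sprouty genes (Spry1, Spry2 and Spry4) and 2 Spred genes (Spred1 and Spred2). The members were taken by gene name from a table of 56748 genes, and all 10 were found and lay above the filter on low values. Hearts labelled kdm5b Cko, called cKO here, were compared with hearts labelled Flox with the genotype FF, at postnatal day 1, with 3 libraries in each group. Kdm5b encodes a histone demethylase, and the series title concerns its place in the cell cycle gene expression of cardiomyocytes. The labels describe the knockout as cardiac specific and name no Cre driver, so the cell types of the heart that carry it are not stated. FF mice are named as the controls in the labels, which also state that hearts were snap frozen. Whether the libraries of a group came from separate animals is not stated, and the spread behind each p-value may be technical.

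Growth factors acting on receptor tyrosine kinases switch on RAS, which passes the signal through RAF and MEK to ERK. Active ERK induces the genes of its own brakes: dual-specificity phosphatases remove the activating phosphates from ERK and related kinases, and Sprouty and Spred proteins act further upstream, between the receptor and RAF. Transcripts of these genes are therefore widely used as readouts of ERK activity. In the heart, ERK signalling takes part in growth of the heart muscle and valves, and human SPRED1 is mutated in a disorder of the RAS pathway.

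The promoters of 3 phosphatase genes are shown because these genes differ in the response elements before their start site. RefSeq promoter windows on GRCm38.p6 were found for 8 of the 10 genes, and the 250 bases before the start site were searched on both strands. Capitals mark TGACG, the core of the cyclic AMP response element, the full element TGACGTCA, and the CArG box, the site bound by serum response factor. On the strand shown, TGACG of the other strand reads CGTCA. No motif that was searched occurs in the Dusp7 window, which is therefore all in lower case.
Dusp1, chr17:26508473-26508722, minus strand: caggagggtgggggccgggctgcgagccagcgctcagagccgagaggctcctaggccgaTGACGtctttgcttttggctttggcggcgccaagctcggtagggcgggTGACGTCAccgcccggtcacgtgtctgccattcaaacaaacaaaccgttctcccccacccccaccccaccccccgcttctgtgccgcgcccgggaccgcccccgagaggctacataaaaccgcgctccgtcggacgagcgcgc
Dusp5, chr19:53528895-53529144, plus strand: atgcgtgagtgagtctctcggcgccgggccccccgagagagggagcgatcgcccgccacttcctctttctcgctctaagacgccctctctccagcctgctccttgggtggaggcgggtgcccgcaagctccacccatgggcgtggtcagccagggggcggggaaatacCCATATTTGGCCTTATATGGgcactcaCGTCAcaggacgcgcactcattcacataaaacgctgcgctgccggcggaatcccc
Dusp7, chr9:106368382-106368631, plus strand: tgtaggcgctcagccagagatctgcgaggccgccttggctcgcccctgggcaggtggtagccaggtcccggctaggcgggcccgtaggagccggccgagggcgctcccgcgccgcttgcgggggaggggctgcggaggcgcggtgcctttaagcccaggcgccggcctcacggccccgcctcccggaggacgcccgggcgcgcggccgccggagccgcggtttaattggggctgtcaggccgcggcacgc

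The Dusp1 window holds 3 matches to TGACG, starting 191, 143 and 140 bases before the start site, and the last pair are the 2 strands of a single full TGACGTCA element. The full element is present in 1.55% of the 32851 windows in the table, and TGACG in 17.8%. The Dusp5 window holds 2 adjoining CArG boxes at 82 and 72 bases before the start, a motif found in 1.47% of windows, and a TGACG match at 55 bases. Spred2 has a TGACG match too, at 51 bases. The ETS site GGAAGT, the recognition sequence of a factor family that ERK phosphorylates, was found in Dusp5 and Spred2 and in 19.7% of windows. TGANTCA, the AP-1 site (6.75% of windows), and TATAAA (12.4%) were not found in the 8 windows. A match is a string of letters and no measure of binding.

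Libraries held 15658893 to 20339926 reads in the table, and 51 to 1865 of them fell on each of the 10 genes. FF replicate 3 was unlike the rest, since its correlation with the other libraries across genes was at most 0.909, against at least 0.954 among the others. All 14 thymocyte markers examined were highest in it, with a summed level of 346 FPKM against 1.38 to 2.33 FPKM in the other 5 libraries, where Rag2 was listed at 0 throughout. Heart muscle markers were abundant in every library, with Myh6, the alpha myosin heavy chain, at 2268 to 2866 FPKM in cKO and 2266 to 2349 FPKM in FF hearts. Kdm5b itself was at 2.80, 3.03 and 2.75 FPKM in cKO and 3.19, 3.25 and 3.92 FPKM in FF hearts, so the groups did not overlap, with a log2 difference of -0.20 (SE 0.12) and adjusted p = 0.447 (limma, Benjamini-Hochberg). The labels do not say which exons are deleted, so the level of the whole gene is a limited check of the labels. The differences of the 10 genes are given with and without FF replicate 3.

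Among the brakes of ERK, every cKO library lay below FF at Dusp1 and Dusp6 and above FF at Dusp4. None of these passed with all 6 libraries in the main fit. Dusp7 and Spred1 were set apart between the groups only without FF replicate 3. After a correction for GC content, chosen after seeing the data, Dusp1 alone passed, with 6 libraries and without FF replicate 3 (limma adjusted p = 0.0215 and 0.00478). The groups overlapped at Dusp5, the 3 Sprouty genes and Spred2. With all 6 libraries, 0 of the 10 genes passed an adjusted p of 0.05 in limma, where 0.166% of the 12678 genes tested did, 0.071% higher and 0.0947% lower in cKO. At an unadjusted p under 0.05 there were 3 (Dusp1, Dusp4 and Dusp6), against 17.9% of all genes, and 5 without FF replicate 3, against 33.5%. Without FF replicate 3, Dusp1 and Spred1 fell and Dusp4 and Dusp7 rose, 4 of 10 genes or 40.0%, where 12% of all genes passed. With GC correction as well, 1 of the 10 passed, where 987 higher and 1054 lower of 12473 genes did. The 10 genes were chosen with earlier results of these data known, so their share is no independent result. The groups did not overlap at 3 of the 10 genes with 6 libraries, close to the 28% of all genes, and at 5 of 10 without FF replicate 3, where all genes gave 52%. Of these 5, 2 were above and 3 below FF, where 25% and 27% of all genes were. The median log2 difference of the 10 genes was -0.11 with 6 libraries and -0.052 without FF replicate 3, beside 0.0056 and -0.0093 for all genes tested.

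**Figure D1:**
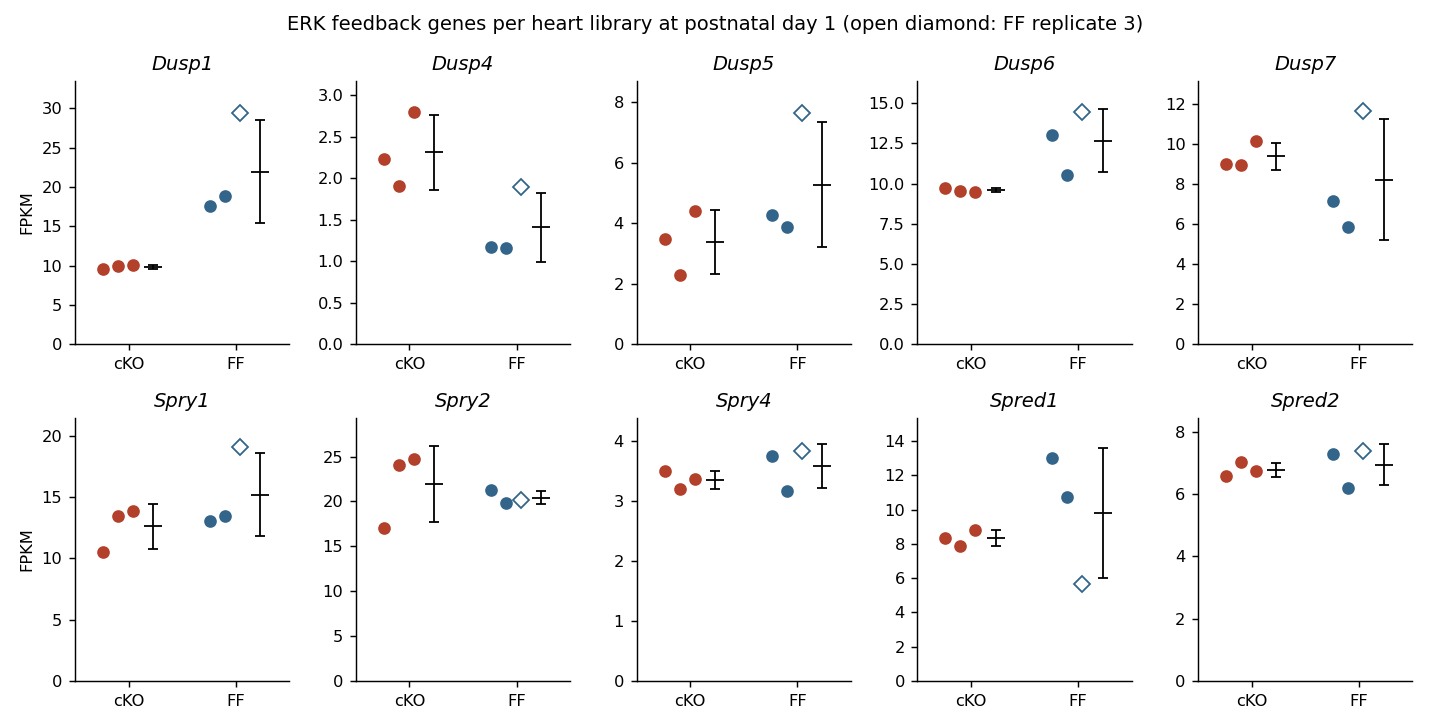
FPKM of each gene in each library, with cKO left and FF right in every panel, points for libraries, an open diamond for FF replicate 3, and the mean ± SD (n = 3) beside them. Dusp1 lies at 9.51 to 10.1 FPKM in cKO and 17.5 to 29.4 FPKM in FF hearts, and FF replicate 3 is the highest of the 6 libraries at 7 genes and the lowest at Spred1.

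Dusp1, also known as MKP-1, is a nuclear phosphatase of p38, JNK and ERK and an immediate-early gene (ENSMUSG00000024190, chromosome 17, 26724564 to 26781102, minus strand). It was at 9.51, 9.92 and 10.1 FPKM in cKO hearts, against 17.5, 18.8 and 29.4 FPKM in FF hearts. Each cKO library lay below each FF library, and the cKO values were within 1 FPKM of each other. The means were 9.83 ± 0.290 FPKM in cKO and 21.9 ± 6.53 FPKM in FF hearts (SD, n = 3 each). The mean in cKO was thus 55.1% lower, and 45.9% lower without FF replicate 3. The log2 difference on log2(FPKM + 1) was -1.05 (SE 0.20, 95% interval -1.53 to -0.56), short of the threshold (limma adjusted p = 0.0772). Without FF replicate 3 it was -0.82 (SE 0.085) and passed, with adjusted p = 0.0126 (limma). It also passed with all 6 libraries after a correction for GC content that was chosen after seeing the data (log2 difference -1.01, limma adjusted p = 0.0215).

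Counting error was small beside this gap. The 724 reads of cKO replicate 3 gave a 95% exact Poisson interval of 9.35 to 10.8 FPKM, and the 990 reads of FF replicate 1 gave 16.4 to 18.6 FPKM. Such intervals cover counting error alone. The deposited span of Dusp1 is 56539 bases, against 2882 bases for RefSeq on GRCm38, with a counted length of 3311 bases. It overlaps the first 640 bases of Ergic1 on the other strand, which was at 6.20, 7.98 and 8.54 FPKM in cKO and 9.002, 7.99 and 15.6 FPKM in FF hearts. No source used here gives the strand setting of the counting, and without it reads in that overlap cannot be told apart.

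Dusp4, or MKP-2, is the nearest relative of Dusp1 in the nucleus (ENSMUSG00000031530, chromosome 8, 35274451 to 35287048, plus strand). It had the lowest level of the 10 genes, at 2.24, 1.90 and 2.79 FPKM in cKO and 1.18, 1.16 and 1.89 FPKM in FF hearts. Each cKO library lay above each FF library, though cKO replicate 2 and FF replicate 3 nearly met, with counting intervals of 1.55 to 2.31 and 1.53 to 2.30 FPKM. The means were 2.31 ± 0.449 FPKM in cKO and 1.41 ± 0.414 FPKM in FF hearts (SD, n = 3 each). The mean in cKO was 63.9% higher, and 97.5% higher without FF replicate 3, which the log2(FPKM + 1) scale understates at this low level. The log2 difference was 0.46 (SE 0.18, 95% interval 0.029 to 0.90, adjusted p = 0.254) with 6 libraries in limma, and 0.60 (SE 0.14, adjusted p = 0.0451) without FF replicate 3. After GC correction it was 0.51 with 6 libraries and 0.52 without FF replicate 3, both short of the threshold (limma adjusted p = 0.0859 and 0.0513). The gene had 103 to 166 reads in cKO and 51 to 99 reads in FF libraries.

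Dusp5, a nuclear phosphatase that acts on ERK alone among these kinases, had overlapping groups (ENSMUSG00000034765, chromosome 19, 53517540 to 53530862, plus strand). It was at 3.48, 2.29 and 4.40 FPKM in cKO and 4.29, 3.89 and 7.65 FPKM in FF hearts. FF replicate 3 was the highest library, 1.87 times the mean of the other 2 FF libraries. The log2 difference of -0.50 (SE 0.28, 95% interval -1.16 to 0.16) was -0.24 (SE 0.21) without FF replicate 3, and neither passed (limma adjusted p = 0.406 and 0.450).

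The cytoplasmic ERK phosphatases are Dusp6, or MKP-3, and Dusp7, or MKP-X. Dusp6, the phosphatase transcript most often read as a measure of ERK output, was at 9.72, 9.56 and 9.50 FPKM in cKO and 13.02, 10.6 and 14.4 FPKM in FF hearts (ENSMUSG00000019960, chromosome 10, 99099093 to 99103351, plus strand). The 3 cKO libraries were nearly alike and lay below the FF libraries, with means of 9.59 ± 0.110 FPKM in cKO and 12.7 ± 1.96 FPKM in FF hearts (SD, n = 3 each). The log2 difference was -0.36 (SE 0.14, 95% interval -0.69 to -0.027), and -0.26 (SE 0.11) without FF replicate 3. Neither passed (limma adjusted p = 0.251 and 0.142).

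Dusp7 was at 8.99, 8.96 and 10.2 FPKM in cKO and 7.16, 5.85 and 11.6 FPKM in FF hearts (ENSMUSG00000053716, chromosome 9, 106245831 to 106252923, plus strand). FF replicate 3 was above the cKO libraries and the other FF libraries below them, so the groups overlapped with all 6 libraries. The log2 difference was 0.22 (SE 0.23, adjusted p = 0.666) with 6 libraries and 0.47 (SE 0.11, adjusted p = 0.0487) without FF replicate 3 in limma. With GC correction the difference without FF replicate 3 was 0.40 and just missed the threshold (limma adjusted p = 0.0586).

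**Figure D2:**
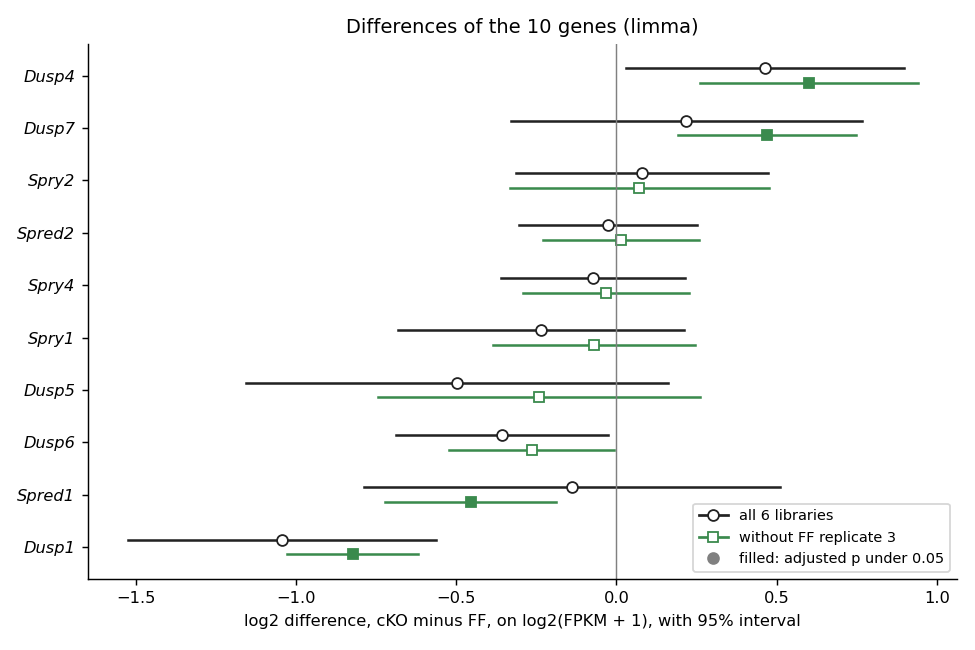
Log2 difference (cKO minus FF) of each gene and its 95% interval from limma, computed on log2(FPKM + 1), for all 6 libraries (black circles) and without FF replicate 3 (green squares), filled where the adjusted p is under 0.05. On this scale, which understates changes of low genes such as Dusp4, Dusp1 lies farthest from 0 in both, at -1.05 and -0.82. Dusp4, Dusp7, Spred1 and Dusp1 are filled without FF replicate 3.

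The mix of phosphatase transcripts within each library differed between the groups, a measure that the scaling of libraries cannot move. Dusp1 made up 28.0%, 30.4% and 27.3% of the summed level of the 5 phosphatases in cKO hearts, against 40.6%, 46.7% and 45.3% in FF hearts. FF replicate 3 lay between the other FF libraries here. The share of Dusp4 was 6.59%, 5.83% and 7.56% in cKO and 2.72%, 2.89% and 2.90% in FF hearts, and that of Dusp7 was 26.5%, 27.4% and 27.5% in cKO and 16.6%, 14.5% and 17.9% in FF hearts. Shares of Dusp5 and Dusp6 overlapped between the groups. Shares of 1 sum are tied, so a smaller part of Dusp1 by itself raises the shares of the others. The FPKM values of Dusp7 overlapped between the groups with all 6 libraries. Dusp1 exceeded Dusp4 by 4.25, 5.21 and 3.61 times in cKO hearts and by 14.9, 16.2 and 15.6 times in FF hearts, with means of 4.36 ± 0.808 and 15.6 ± 0.642 (SD, n = 3 each). The ratio in FF replicate 3 was within the range of the other FF libraries. GC contents of the transcripts were 54.0% for Dusp1 and 56.0% for Dusp4, and the part of GC content in the ratio was not tested. The ratio of Dusp1 to Dusp7 was 1.06, 1.11 and 0.992 in cKO hearts and 2.45, 3.22 and 2.53 in FF hearts. That of Dusp6 to Dusp7 was 1.08, 1.07 and 0.935 in cKO and 1.82, 1.81 and 1.24 in FF hearts, where FF replicate 3 stood apart. An exact permutation test of 3 against 3 cannot go below p = 0.1, and these ratios were chosen after the values were seen, so they are given without a test.

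The summed level of the 5 phosphatases was 33.9, 32.6 and 36.9 FPKM in cKO hearts and 43.1, 40.3 and 65.0 FPKM in FF hearts. The groups did not overlap, and most of the gap was in Dusp1, whose mean differed by more than that of any other member. For the 5 Sprouty and Spred genes the sums were 46.0, 55.6 and 57.5 FPKM in cKO and 58.4, 53.3 and 56.1 FPKM in FF hearts, which overlapped.

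**Figure D3:**
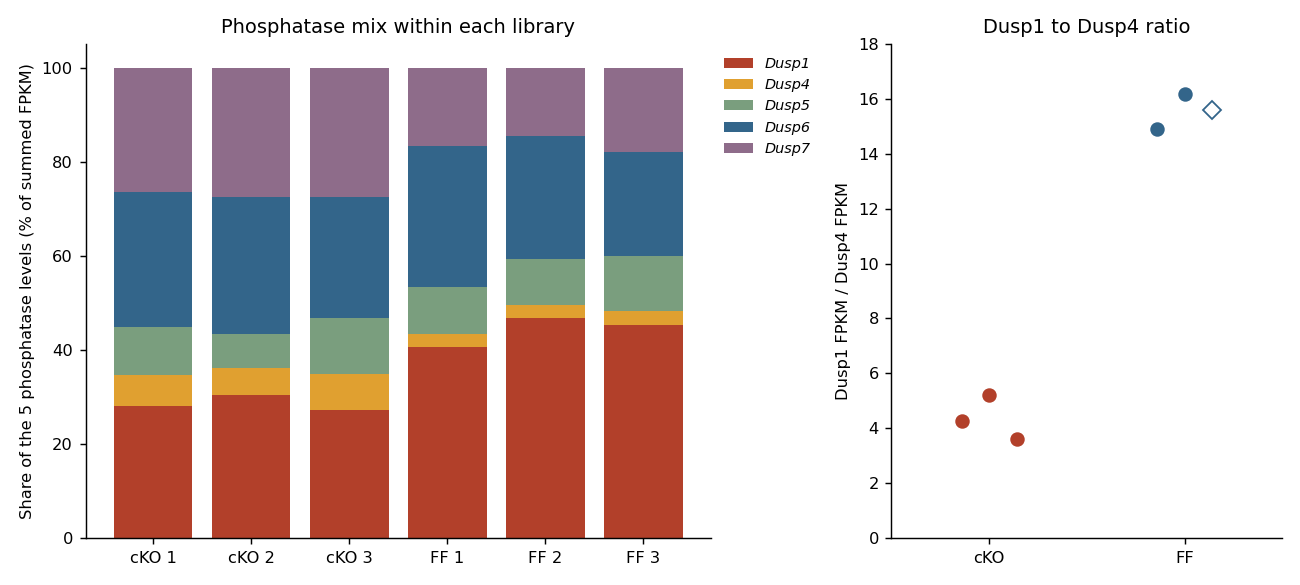
Left, share of each phosphatase gene in the summed FPKM of the 5 (%, stacked, 1 bar per library, cKO left and FF right). Right, ratio of Dusp1 to Dusp4 FPKM per library, with FF replicate 3 as an open diamond, at 3.61 to 5.21 in cKO and 14.9 to 16.2 in FF hearts.

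Sprouty proteins, named for the fly gene whose loss makes airways branch too much, are inhibitors of receptor tyrosine kinase signalling that bind adaptors such as GRB2. Their transcripts showed no difference that passed, with or without FF replicate 3. Spry2 had the highest mean level of the 10 genes over all libraries, at 17.0, 24.0 and 24.7 FPKM in cKO and 21.3, 19.8 and 20.2 FPKM in FF hearts (ENSMUSG00000022114, chromosome 14, 106129381 to 106134253, minus strand). The cKO libraries lay on both sides of the FF libraries. Its log2 difference was 0.080 (SE 0.17, 95% interval -0.31 to 0.47, limma adjusted p = 0.838), and 0.072 without FF replicate 3 (limma adjusted p = 0.793). It turned to -0.012 without cKO replicate 3.

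Spry1 was at 10.5, 13.5 and 13.9 FPKM in cKO and 13.02, 13.4 and 19.1 FPKM in FF hearts (ENSMUSG00000037211, chromosome 3, 37694096 to 37698747, plus strand). FF replicates 1 and 2 lay within the wider range of the cKO libraries, and FF replicate 3 above it. The log2 difference was -0.24 (95% interval -0.68 to 0.21) with 6 libraries and -0.071 (-0.39 to 0.24) without FF replicate 3 (limma adjusted p = 0.559 and 0.736). Spry4, a Sprouty induced by ERK in many cell types, was at 3.49, 3.19 and 3.37 FPKM in cKO and 3.76, 3.17 and 3.83 FPKM in FF hearts (ENSMUSG00000024427, chromosome 18, 38719300 to 38734468, minus strand). It had the narrowest interval of the Sprouty genes, -0.36 to 0.21 around a log2 difference of -0.073 (limma adjusted p = 0.793). The difference was -0.034 without FF replicate 3 (limma adjusted p = 0.851).

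Spred proteins carry an EVH1 domain and a Sprouty-like domain, and bring neurofibromin, the GTPase-activating protein encoded by Nf1, to RAS. Spred1 was at 8.37, 7.88 and 8.82 FPKM in cKO and 13.03, 10.7 and 5.65 FPKM in FF hearts (ENSMUSG00000027351, chromosome 2, 116951855 to 117012760, plus strand). The cKO libraries were alike, while FF libraries lay both above and below them. FF replicate 3 was at 0.476 times the mean of the other FF libraries. The log2 difference was -0.14 (SE 0.27, limma adjusted p = 0.827) with 6 libraries and -0.46 (SE 0.11, limma adjusted p = 0.0485) without FF replicate 3, a call that GC correction ended (-0.32, adjusted p = 0.0734). Leaving out FF replicate 1 instead turned it to 0.083.

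Spred2 was at 6.59, 7.02 and 6.74 FPKM in cKO and 7.28, 6.19 and 7.39 FPKM in FF hearts (ENSMUSG00000045671, chromosome 11, 19874375 to 19974026, plus strand). It showed the smallest difference of the 10 genes, -0.027 on the log2 scale with a 95% interval of -0.31 to 0.25 (limma adjusted p = 0.925), and 0.013 without FF replicate 3 (limma adjusted p = 0.944). Spred1 exceeded Spred2 by 1.27, 1.12 and 1.31 times in cKO and by 1.79, 1.73 and 0.765 times in FF hearts. FF replicate 3 had less Spred1 than Spred2 transcript per length, unlike the other 5 libraries.

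By mean FPKM, the order in cKO hearts was Spry2, Spry1, Dusp1, Dusp6, Dusp7, Spred1, Spred2, Dusp5, Spry4 and Dusp4. Ranges of neighbours overlapped between Dusp1, Dusp6 and Dusp7 and between Dusp5 and Spry4, and the other neighbours were apart. In FF hearts the order was Dusp1, Spry2, Spry1, Dusp6, Spred1, Dusp7, Spred2, Dusp5, Spry4 and Dusp4. There the ranges of Spry2 and Spry1 were apart, as were those of Dusp5 and Spry4 and of Spry4 and Dusp4, and all other neighbours overlapped. Without FF replicate 3 the FF order was Spry2, Dusp1, Spry1, Spred1, Dusp6, Spred2, Dusp7, Dusp5, Spry4 and Dusp4. The FF means were then 20.6 FPKM for Spry2 and 18.2 FPKM for Dusp1. Dusp1 therefore came after Spry2 and Spry1 in cKO hearts, and after Spry2 alone in FF hearts without FF replicate 3. With all FF libraries its values overlapped those of Spry2.

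FF replicate 3 deviated from the other FF libraries in step with the GC content of the transcripts. Its log2 level was 0.75 above the mean of FF replicates 1 and 2 for Dusp7, with a GC content of 57.6%, and 0.77 above for Dusp5, with 56.7%. For Spred1, the most AT-rich of the 10 with a GC content of 41.2%, it was -0.95. Across the 10 genes, Spearman's rho between GC content and this deviation was 0.915, and across 12473 tested genes it was 0.639. These are descriptions across genes that share the same 3 libraries. Of the 4 genes called without FF replicate 3, Dusp4, Dusp7 and Spred1 did not pass once GC was corrected, with or without FF replicate 3. Dusp1 passed in both.

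**Figure D4:**
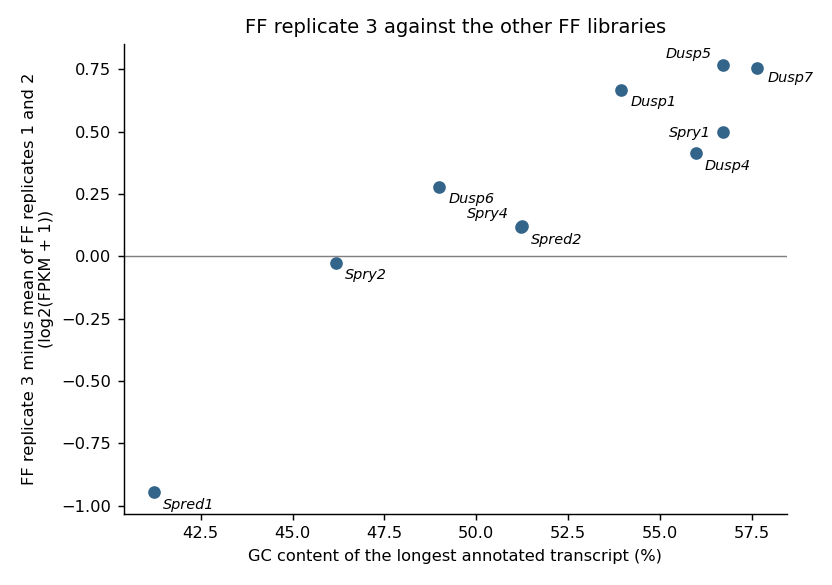
GC content of the longest annotated transcript (%) of each of the 10 genes, against the log2(FPKM + 1) level in FF replicate 3 minus the mean of FF replicates 1 and 2. Spred1, at 41.2% GC, lies at -0.95 and Dusp7, at 57.6% GC, at 0.75.

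Summed markers of endothelial cells, fibroblasts and neutrophils did not overlap between the groups in these hearts, and those of other cell types overlapped. Among all single genes tested, 28% did not overlap either, so such a gap was common in these libraries. Fewer cells of a type and less RNA per cell cannot be told apart here. The 10 endothelial markers summed to 290 to 352 FPKM in cKO and 364 to 485 FPKM in FF hearts. Of these genes 4 lay below FF in every cKO library and 0 above, where 14.5% of all genes lay below and 13.5% above. Cldn5, an endothelial tight junction gene, fell without FF replicate 3 (log2 difference -0.99, limma adjusted p = 0.0207). The 10 fibroblast markers summed to 542 to 682 FPKM in cKO and 693 to 1010 FPKM in FF hearts, with 4 below and 1 above. With 6 libraries 0 endothelial, fibroblast, macrophage and heart muscle markers passed in limma. At an unadjusted p under 0.05 there were 2 of 10, 5 of 10, 4 of 9 and 3 of 10 tested, beside 17.9% of all genes. The 8 neutrophil markers summed to 8.24 to 10.1 FPKM in cKO and 14.9 to 24.9 FPKM in FF hearts. Of the 3 tested, 1, Ngp, fell with 6 libraries, where 0.0947% of all genes were called lower.

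Overlapping sums were 42.5 to 53.2 FPKM in cKO and 49.3 to 102 FPKM in FF hearts for the 10 macrophage markers, and 14721 to 16491 FPKM in cKO and 13673 to 15388 FPKM in FF hearts for the 10 heart muscle markers. The 8 epicardial markers summed to 38.03 to 48.3 FPKM in cKO and 43.1 to 88.1 FPKM in FF hearts. Without FF replicate 3, 2 were called higher and 2 lower, where 5.73% and 6.26% of all genes were. The 10 smooth muscle and pericyte markers summed to 555 to 679 FPKM in cKO and 525 to 606 FPKM in FF hearts. Of the 9 tested, 1 was called higher and 1 lower without FF replicate 3, beside the same shares of all genes. Schwann cell markers summed to 2.09 to 3.32 FPKM in cKO and 2.59 to 49.1 FPKM in FF hearts, highest in FF replicate 3.

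The 8 atrial markers varied widely within both groups. They summed to 1196, 574 and 1552 FPKM in cKO and 150, 617 and 1779 FPKM in FF hearts. Their median log2 difference was 0.32 with 6 libraries and 1.19 without FF replicate 3, with 8 of 8 positive in both. Of these, 2 rose without FF replicate 3 (Tbx5 and Nppa, which is also among the heart muscle markers), where 5.73% of all genes were called higher. Erythroid markers summed to 891 to 1096 FPKM in cKO and 753 to 1554 FPKM in FF hearts. Of the 5 tested, 4 lay above FF in every cKO library without FF replicate 3, where 25% of all genes did, and 2 rose (Alas2 and Hba-a2). No marker of these lists was at 0 in all of the 5 libraries other than FF replicate 3. The part of these cell types in the levels of Dusp1, Dusp4, Dusp6, Dusp7 and Spred1 was not tested.

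Among the ligands, receptors and kinases that feed into these brakes, 0 passed with 6 libraries in limma. Of 27 genes of the cascade from GRB2 and RAS to ERK and its kinase targets, 2 had an unadjusted p under 0.05 with 6 libraries and 12 without FF replicate 3, where 17.9% and 33.5% of all genes did. Without FF replicate 3, 1 was called lower and 0 higher, and 11 lay above and 7 below FF in every cKO library, where 25% and 27% of all genes did. The median log2 difference was 0.045, and 0.065 without FF replicate 3. Mapk3, which encodes a form of ERK itself, had overlapping groups, at 34.1 to 40.6 FPKM in cKO and 30.9 to 65.1 FPKM in FF hearts.

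Of 17 genes of receptor tyrosine kinases, their co-receptor and adaptors tested, 3 rose without FF replicate 3, where 5.73% of all genes did, and 0 passed with 6 libraries (limma). With 6 libraries 3 had an unadjusted p under 0.05, close to the 17.9% of all genes. The 3 that rose were the neuregulin receptor genes Erbb3 and Erbb2 and the receptor gene Igf1r. Erbb3 was at 4.60, 3.67 and 4.84 FPKM in cKO and 1.86, 1.92 and 2.05 FPKM in FF hearts, with a log2 difference of 0.86 (SE 0.13, adjusted p = 0.0659) and adjusted p = 0.0176 without FF replicate 3 (limma). Among 7 FGF genes tested 0 passed in limma (2 at an unadjusted p under 0.05 with 6 libraries), with Fgf2 at 2.01, 1.25 and 1.87 FPKM in cKO and 0.795, 1.12 and 0.270 FPKM in FF hearts. Of the 9 other growth factor genes, Kitl, the ligand of KIT, fell without FF replicate 3. Its level was 15.1, 9.91 and 10.6 FPKM in cKO and 37.4, 30.4 and 2.76 FPKM in FF hearts.

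Other negative regulators gave 0 of 23 past the threshold with 6 libraries (limma, 3 at an unadjusted p under 0.05, beside 17.9% of all genes) and 2 lower without FF replicate 3, near the 6.26% of all genes. The 2 were Cblb, a ubiquitin ligase, and Pea15a, which keeps ERK in the cytoplasm, at 36.1, 40.2 and 37.5 FPKM in cKO and 54.3, 48.7 and 70.7 FPKM in FF hearts. The remaining Spred gene, Spred3, was at 0.993, 1.17 and 1.22 FPKM in cKO and 1.08, 1.57 and 0.823 FPKM in FF hearts. Of the other MAP kinase phosphatases, Dusp8, which acts on JNK and p38, was at 5.08, 7.01 and 7.62 FPKM in cKO and 9.31, 9.09 and 13.9 FPKM in FF hearts. Its groups did not overlap, with a log2 difference of -0.63 (SE 0.21, limma adjusted p = 0.200), and -0.45 without FF replicate 3 (limma adjusted p = 0.110). None of the 4 tested genes of that list passed with or without FF replicate 3 (1 at an unadjusted p under 0.05), nor did any of 8 other dual-specificity phosphatases (0 with 6 libraries). Of 17 genes of the JNK, p38 and related kinase cascades, Map3k1, a kinase upstream of JNK, rose without FF replicate 3. It was at 4.88, 4.33 and 4.87 FPKM in cKO and 2.44, 2.59 and 1.67 FPKM in FF hearts (log2 difference 0.83 with 6 libraries, limma adjusted p = 0.0728).

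Transcripts known to follow ERK activity included genes that fell and genes that rose without FF replicate 3. Of 22 tested, 9 lay below FF in every cKO library and 0 above, where 14.5% of all genes lay below and 13.5% above. The list was chosen with earlier results of these data known. None passed with 6 libraries (limma, 6 at an unadjusted p under 0.05, beside 17.9% of all genes), and without FF replicate 3 there were 4 lower and 2 higher, where 6.26% of all genes were lower and 5.73% higher. The lower genes were Plaur, the urokinase receptor, the AP-1 subunit Fosl2, the kinase Plk3 and the cyclin Ccnd1. Plaur was at 1.59, 1.76 and 1.53 FPKM in cKO and 4.14, 3.87 and 4.27 FPKM in FF hearts, with a log2 difference of -0.96 (SE 0.12) and adjusted p = 0.0549 with 6 libraries (limma). Fosl2 was at 2.47, 3.07 and 2.71 FPKM in cKO and 5.76, 5.79 and 6.94 FPKM in FF hearts. The higher genes were Ier3 and Egr1. Egr1, an early transcription factor gene, was at 6.75, 8.55 and 9.64 FPKM in cKO and 3.41, 4.18 and 9.74 FPKM in FF hearts. The ETS factor genes Etv4 and Etv5, which share the role of ERK readout with Dusp6 and Spry4, did not pass. Etv4 was at 1.14, 1.52 and 1.08 FPKM in cKO and 1.96, 2.28 and 1.94 FPKM in FF hearts, and Etv5 at 3.37, 4.06 and 4.64 FPKM in cKO and 3.47, 2.76 and 4.14 FPKM in FF hearts.

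Immediate-early genes, the class to which Dusp1 also belongs, had a median log2 difference of -0.39 over 19 tested genes and -0.25 without FF replicate 3, beside 0.0056 and -0.0093 for all genes. In every cKO library 9 of the 19 lay below FF and 1 above, where 14.5% of all genes lay below and 13.5% above. This list was also chosen with earlier results of these data known. It shares Egr1 with the transcripts known to follow ERK activity, so the counts of the 2 lists are not separate. Without FF replicate 3 there were 5 lower and 2 higher past the threshold in limma, where 6.26% of all genes were lower and 5.73% higher. With 6 libraries 0 passed, and 8 had an unadjusted p under 0.05, where 17.9% of all genes did. The lower genes were Klf4, Klf6, Csrnp1, Klf2 and Jund. Klf4 was at 7.01, 10.01 and 9.29 FPKM in cKO and 19.7, 21.8 and 22.9 FPKM in FF hearts, with FF replicate 3 close to the other FF libraries. Fos was at 1.29, 1.29 and 1.47 FPKM in cKO and 4.18, 2.23 and 6.20 FPKM in FF hearts (log2 difference -1.07, SE 0.28, limma adjusted p = 0.137). It was -0.80 without FF replicate 3 (limma adjusted p = 0.0527). Gadd45b, at 8.16, 8.41 and 6.03 FPKM in cKO and 3.39, 2.75 and 2.63 FPKM in FF hearts, was the gene whose cKO libraries all lay above FF. Egr1 was the other that rose without FF replicate 3. Dusp1 is also a known target of the glucocorticoid receptor. Of 10 such target genes, Sgk1 fell and Fkbp5 rose without FF replicate 3, where 12% of all genes passed. With 6 libraries 0 passed (limma) and 5 had an unadjusted p under 0.05, beside 17.9% of all genes, with a median of -0.029.

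**Figure D5:**
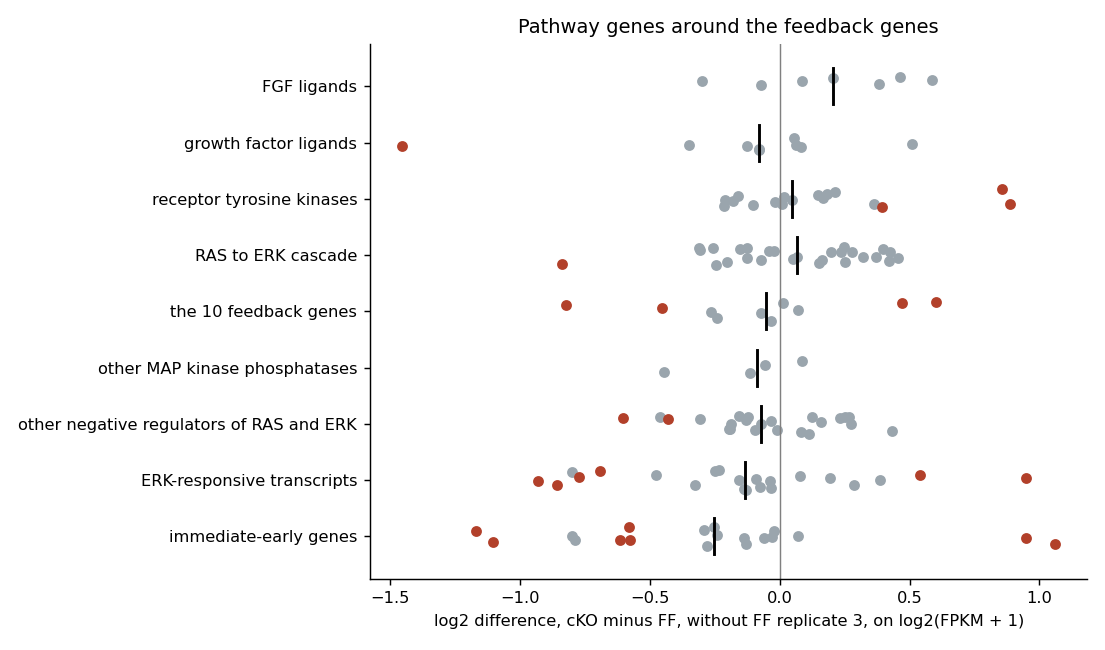
Log2 difference, cKO minus FF, without FF replicate 3, of each tested gene (points) in 9 lists from ligands at the top to immediate-early genes at the bottom, with the list median as a black bar and genes with a limma adjusted p under 0.05 in red. The 10 feedback genes have a median of -0.052, with 2 red points on each side of 0, and the immediate-early genes a median of -0.25.

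The genes with profiles most like those of 3 members were found by the root mean square difference of centred log2(FPKM + 1) values over the 6 libraries. For Dusp1 they were Vtn (0.0992), Mall (0.113) and Cdca7 (0.119), on the log2 scale. For Dusp6 they were Txndc12 (0.0390), Krtcap2 (0.0453) and Chchd10 (0.0455). For Spry4 they were ENSMUSG00000120258 (0.0194), Hilpda (0.0339) and Uap1l1 (0.0342), all genes that vary little between libraries.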

How the data were processed

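RNA from hearts was sequenced in 3 cKO and 3 FF libraries. The labels' protocols give a Qiagen miRNeasy micro extraction and NuGEN Ovation Ultralow V2 libraries. Values deposited by the authors are FPKM, in which fragment numbers are scaled by gene length and sequencing depth. Tools in the submitters' processing notes, listed without roles, are TopHat2 2.0.13, featureCounts from Subread, edgeR and FastQC, and builds are mm10, GRCm39 and GRCh38. Annotation release and strand setting: not given in the sources used here. Gene coordinates are as deposited. None of the 10 genes, and 1472 of 52073 shared identifiers, had the coordinates of GENCODE M21 on GRCm38, which leaves GRCm39 of the mouse builds named. Promoters are from RefSeq on GRCm38.p6.

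Reads behind each value were recovered from FPKM and gene length (100% of values under 200 reads were whole within 0.1). The main test was limma 3.58.1 (R 4.3.3) on log2(FPKM + 1) with a trended variance prior, for the 12678 genes whose mean over the 6 libraries reached 1 FPKM. Benjamini-Hochberg adjustment ran over all of these, with a threshold of 0.05. This scale understates changes of low genes. The fit was tested on simulated counts that held no outlying library and no GC-linked deviation. That test therefore does not show how FF replicate 3 affects the calls. The members and gene lists were chosen with earlier results of these data known. Beyond the members and Kdm5b, the text names listed genes past the threshold without FF replicate 3 or with the smallest p, and the genes of most similar profile. Mapk3, Etv4, Etv5, Fos, Spred3, Rag2 and Ergic1 were named after their values were seen. The GC correction subtracted each library's median deviation from the mean of all libraries, in 20 bins of transcript GC content. Some listed genes are not reported here.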

Additional observations from a re-analysis of the deposited data

How the results depend on the processing

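Across all genes the main fit gave 9 higher and 12 lower, with 0 of the 10 feedback genes. Leaving out 1 library at a time gave 0 to 726 higher and 0 to 794 lower, and 0 to 2 feedback genes in each direction, and the upper values were those without FF replicate 3. Library weights gave 2143 higher and 2157 lower of 12678 genes, with 2 of the 10 feedback genes higher and 2 lower. The weights were 0.086 for FF replicate 3 and 5.69 for FF replicate 2. That fit therefore comes close to leaving FF replicate 3 out and is no separate check of it. GC correction gave 258 higher and 266 lower, and GC correction without FF replicate 3 gave 987 and 1054, each with 1 feedback gene lower (Dusp1) and 0 higher. Both GC settings were chosen after seeing the data. In the other settings no feedback gene passed. A pseudocount of 0.1 gave 6 higher and 5 lower, 0.5 gave 8 and 6, no filter gave 0 and 0, and a mean of at least 5 FPKM gave 23 and 30. Median-ratio scaling gave 9 and 6, quantile normalization 31 and 28, rescaling outside mitochondrial and haemoglobin genes 38 and 20, a robust prior 7 and 6, and protein-coding genes alone 32 and 33. The replicate block gave 1 and 1. Same-numbered libraries correlated in their deviations at 0.383, -0.238 and 0.239, and not every library correlated best with its own number, so the numbers were not taken as pairs. Directions turned for 4 genes, whose log2 differences in the main fit were 0.080 (Spry2), -0.073 (Spry4), -0.14 (Spred1) and -0.027 (Spred2). Spred1 was called lower without FF replicate 3 and with library weights (-0.33, limma adjusted p = 0.0349), yet turned positive without FF replicate 1. Spry2 ranged from -0.012 to 0.25 and Spred1 from -0.46 to 0.083 over the fits that leave out 1 library. Spred2 ranged from -0.098 to 0.013 over those fits, and was 0.054 with rescaling, 0.087 with library weights, 0.021 with GC correction and 0.0062 with GC correction without FF replicate 3. Spry4 was 0.033 with library weights. The cause of these changes was not tested. Dusp4 had 51 to 166 reads per library, which limits its precision.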
